A study of Mus musculus with 12 samples.

Results

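Cystine import and glutathione synthesis were followed through 7 genes chosen by name: Slc7a11, Slc3a2, Gclc, Gclm, Gss, Gsr and Ggt1. The list was drawn up with earlier results of these data known, so setting its members against all probe sets is descriptive only. Every probe set of the array that names exactly 1 of these genes was taken. This gave 11 of 34958 single-gene probe sets and 6 of 18194 genes. Slc7a11, Gclc, Gclm, Gss and Gsr had 2 probe sets each and Slc3a2 had 1, while Ggt1 was not analysed here. The cells were BNL CL.2, a line grown from mouse liver, and 12 arrays of them were read after 24 h, 3 in each of 4 groups. In the group called alone, the insert above the cells held further cells of the same line. The FAC group received iron as ferric ammonium citrate, at 100 micromolar. The RAW group had RAW 264.7 cells, a mouse macrophage line, in the insert, and the RAW_FAC group had both. All groups grew in DMEM with serum, and RNA was read from 1 line only, so nothing here speaks for liver tissue or for another line.

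Glutathione is a tripeptide of glutamate, cysteine and glycine that keeps the cell's thiols reduced and feeds the enzymes that remove peroxides. Cysteine is usually its scarcest part. Many cells take it up as cystine through system xc-, in which the light chain Slc7a11 exchanges cystine for glutamate and the heavy chain Slc3a2 carries it to the membrane. Glutamate-cysteine ligase, made of the catalytic subunit Gclc and the modifier subunit Gclm, joins glutamate to cysteine in the rate-limiting step. Glutathione synthetase, Gss, adds glycine. Glutathione reductase, Gsr, returns the oxidised form to the reduced one, and the surface enzyme Ggt1 starts the breakdown of glutathione outside the cell. Slc7a11, Gclc and Gclm are textbook targets of the antioxidant factor NRF2, and Slc7a11 and Slc3a2 also of the amino acid stress factor ATF4. Free iron can drive the peroxidation of lipids, which glutathione peroxidase opposes, and cystine starvation is a known route to the iron-dependent death called ferroptosis.

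Promoter sequences of the members were read from RefSeq (GRCm38.p6), from 250 bases before to 50 after the gene start, on the gene's own strand and 5′ to 3′. Entries were matched for Slc7a11, Slc3a2, Gclm, Gss and Ggt1; Gclc and Gsr had none. Slc7a11, at chr3:50443564-50443863 on the minus strand, is shown because it holds 2 copies of the amino acid response element searched as TGATGNAA. Gclm, at chr3:122245307-122245606 on the plus strand, holds 1 core of the antioxidant response element searched as TGACNNNGC. Slc1a4, at chr11:20332664-20332963 on the minus strand, is a cysteine transporter described with the wider pathway and holds 1 copy of TGATGNAA. Capitals mark the matches.
Slc7a11: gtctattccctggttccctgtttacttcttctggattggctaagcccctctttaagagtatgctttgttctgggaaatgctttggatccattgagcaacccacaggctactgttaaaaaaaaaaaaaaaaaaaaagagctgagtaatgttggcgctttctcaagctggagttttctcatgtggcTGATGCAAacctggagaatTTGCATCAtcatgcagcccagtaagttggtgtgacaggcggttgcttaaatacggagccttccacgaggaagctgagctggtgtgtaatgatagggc
Gclm: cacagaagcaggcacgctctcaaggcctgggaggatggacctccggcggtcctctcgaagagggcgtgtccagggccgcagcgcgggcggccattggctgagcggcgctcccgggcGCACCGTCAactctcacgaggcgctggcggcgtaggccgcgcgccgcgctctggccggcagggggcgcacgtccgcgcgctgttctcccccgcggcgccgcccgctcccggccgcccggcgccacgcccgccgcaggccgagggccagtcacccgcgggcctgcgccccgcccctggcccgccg
Slc1a4: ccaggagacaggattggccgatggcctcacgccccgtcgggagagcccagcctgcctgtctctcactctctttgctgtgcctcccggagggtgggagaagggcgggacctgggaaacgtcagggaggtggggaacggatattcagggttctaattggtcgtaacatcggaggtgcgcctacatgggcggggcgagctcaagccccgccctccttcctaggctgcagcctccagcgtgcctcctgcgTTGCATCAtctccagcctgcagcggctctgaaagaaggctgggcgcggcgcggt
Both motifs were searched on both strands, and no match of one overlapped a match of the other in these windows. In Slc7a11 the matches run from -66 to -59 and, read on the other strand, from -47 to -40, counted from the gene start. The Gclm match lies on the other strand from -134 to -126, and that of Slc1a4 on the other strand from -4 to 4. Of 32851 mouse promoter windows of this length, 3.97% held TGATGNAA at least once, 0.07% held it 2 or more times, and 12.4% held TGACNNNGC. Ggt1 has 4 windows, of which 3 held TGACNNNGC once. Abcc4, an exporter described with the wider pathway, has 2 windows and both held it once. The Slc7a11 and Slc1a4 windows held no TGACNNNGC, the Gclm window no TGATGNAA, and the Slc3a2 and Gss windows neither, which says only that these letters are not in them.

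Array medians lay between 5.63 and 5.68 on the log2 scale, which RMA makes alike by construction. Of 9 measured hepatocyte markers, 3 lay above 6.82, the median level of all genes: Afp, Hnf4a and Apob. The probe set of Alb, the main hepatocyte product, averaged 5.20, below that median. In limma with the replicate number as a block, 1 of the 9 hepatocyte markers passed for the average effect of FAC, where 203 of 34958 probe sets passed in either direction. It was Afp, higher by 0.45 (log2, SE 0.07; limma adjusted p = 0.0213 with the block, 0.859 without it). Of 9 fibroblast or stellate markers 1, Vim, lay above the median level, and 0 passed. With the block 0 of the 12 macrophage markers passed for the average effect of FAC or for RAW against alone. The part of these markers in the results was not tested. Of 7 markers of simple epithelium 5 lay above the median level, Krt8 and Krt18 among them. Of 12 macrophage markers 2 did, Cd14 and Laptm5, and the mean level of that list ran from 5.70 to 5.78 in alone, 5.72 to 5.84 in FAC, 5.77 to 5.80 in RAW and 5.77 to 5.79 in RAW_FAC. In bulk RNA, fewer cells of a type and less RNA per cell cannot be told apart. Tfrc, the transferrin receptor that cells lower when iron is plentiful, fell by 1.22 (log2, SE 0.09) on average with FAC (limma with the replicate number as a block, adjusted p = 0.000593; without the block, 0.0653).

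With FAC and the replicate number as a block, the genes of cystine import and of the ligase passed as higher, and Gss and Gsr did not pass. Averaged over cultures without and with macrophages, Slc7a11 rose 1.86-fold, Gclc 1.34-fold and 1.31-fold on its 2 probe sets, Slc3a2 1.29-fold and Gclm 1.25-fold on the brighter of its 2. Each of these was higher with FAC in 6 of 6 same-number pairs of arrays. Gss, the next enzyme of the route, did not pass in either direction, nor did Gsr. These calls come from limma fitted to all 34958 probe sets with the replicate number as a block, two-sided, with Benjamini-Hochberg adjusted p under 0.05. They made 5 of 11 member probe sets called higher and 0 lower, where 0.452% of all probe sets were called higher and 0.129% lower. The members were chosen with earlier results of these data known, so these shares are no independent support. Taking the 3 same-number differences alone, averaged over both macrophage conditions, 1 of 11 members passed, Slc7a11 1420413_at. Of all 34958 probe sets, 9 passed there in either direction. Without the block, limma on all arrays called 0 of 34958 probe sets in each of the 7 comparisons. Between 974 and 2099 had an unadjusted p under 0.05, a range that includes the count this threshold passes when nothing differs. For the average effect of FAC, 6 of 11 members were among those with an unadjusted p under 0.05 on the higher side, against 2.91% of all. The median log2 change of the 11 members was 0.32 and 9 lay above 0. Over all probe sets the median was -0.00 and 48.6% lay above 0.

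**Figure D1:**
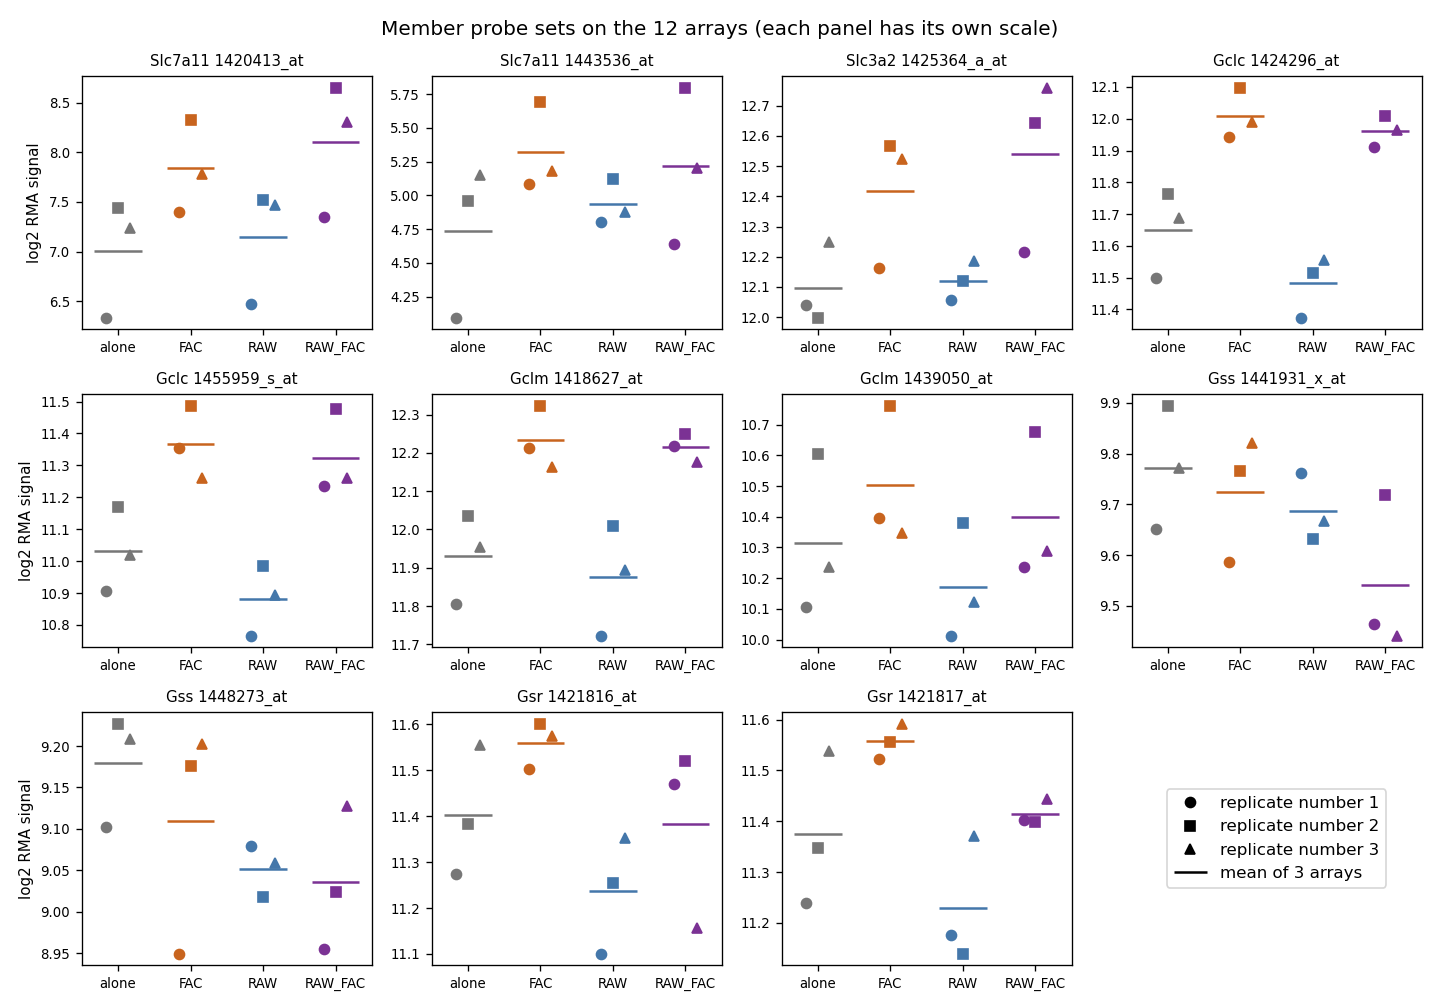
Log2 signal of each member probe set (vertical axis, own scale in each panel) on the 12 arrays, by group (horizontal axis). Circles, squares and triangles are replicate numbers 1, 2 and 3, and horizontal bars are means of 3 arrays. For Gclc and the Gclm probe set 1418627_at the 6 arrays with FAC all lie above the 6 without.

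Slc7a11, the cystine carrier itself, had the largest average change among the members. On its brighter probe set, 1420413_at, the log2 signals of replicates 1, 2 and 3 were 6.33, 7.44 and 7.24 in alone and 7.40, 8.33 and 7.79 in FAC. Beside macrophages they were 6.47, 7.52 and 7.47 in RAW and 7.35, 8.65 and 8.31 in RAW_FAC. The groups overlapped, because replicate 1 was low in every group, but within each number the FAC array was the higher. The same-number differences were 1.07, 0.89 and 0.55 without macrophages and 0.88, 1.13 and 0.84 beside them. Averaged, the log2 change was 0.89 (SE 0.08, 95% interval 0.73 to 1.06), with a limma adjusted p of 0.00115 with the block and 0.681 without it. It passed in 12 of 12 fits with the block that left out 1 array, with changes between 0.83 and 0.97.

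Taken apart, the rise of Slc7a11 passed beside macrophages and narrowly missed without them. RAW_FAC lay 0.95 (SE 0.11) above RAW on the log2 scale, 1.94-fold (limma with the block, adjusted p = 0.0201; without it, 0.894). The call was lost when any 1 of the 6 RAW and RAW_FAC arrays was left out, at adjusted p up to 0.171. In this comparison 3 of 11 members were called higher with the block, Slc7a11 and both Gclc probe sets, against 0.0343% of all probe sets. FAC lay 0.83 (SE 0.11) above alone, 1.78-fold, with an adjusted p of 0.0562 with the block and 1.00 without it. No member passed there, where the block called 4 probe sets in all and 0.00286% as higher. With 1 probe set per gene, which tests fewer features, this adjusted p of Slc7a11 was 0.0436. Of the 12 fits with the block that left out 1 array, 1 passed, without FAC replicate 3 (limma adjusted p = 0.0235). The others missed, at adjusted p up to 0.538 (without FAC replicate 2). With the block and without all arrays of number 1, FAC lay 0.72 above alone. Leaving out 1 array without the block leaves the numbers unequal between groups. The FAC-alone difference then ran from 0.50 (without alone replicate 1) to 1.05 (without FAC replicate 1), and the RAW_FAC-RAW difference from 0.61 (without RAW replicate 1) to 1.33 (without RAW_FAC replicate 1).

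The dimmer Slc7a11 probe set, 1443536_at, averaged 4.73 ± 0.56 (SD, n = 3) in alone, 5.32 ± 0.33 in FAC, 4.93 ± 0.17 in RAW and 5.21 ± 0.58 in RAW_FAC. Its average log2 change with FAC was 0.43 (SE 0.13; limma with the block, adjusted p = 0.209). The pairs were higher with FAC in 5 of 6 cases, and the exception was replicate 1 beside macrophages, at -0.16. Its mean over the 12 arrays, 5.05, lies below the median of all probe set means, 6.18.

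Slc3a2, the heavy chain that Slc7a11 shares with several other carriers, moved less. Its log2 signals were 12.04, 11.998 and 12.25 in alone, 12.16, 12.57 and 12.52 in FAC, 12.06, 12.12 and 12.19 in RAW, and 12.22, 12.64 and 12.76 in RAW_FAC. All 3 RAW_FAC arrays lay above the 3 RAW arrays, and FAC replicate 1 lay below alone replicate 3. The average log2 change was 0.37 (SE 0.07; limma with the block, adjusted p = 0.0390; without it, 0.533). This call was lost in 11 of the 12 fits that left out 1 array, all except the one without RAW_FAC replicate 1, with adjusted p up to 0.140. The change itself stayed between 0.33 and 0.42 in those fits.

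Gclc, the catalytic subunit of the ligase, separated arrays with and without FAC on both probe sets. On probe set 1424296_at the log2 signals were 11.50, 11.76 and 11.69 in alone, 11.94, 12.10 and 11.99 in FAC, 11.37, 11.51 and 11.56 in RAW, and 11.91, 12.01 and 11.96 in RAW_FAC. The lowest of the 6 arrays with FAC, 11.91, lay above the highest of the 6 without, 11.76. On 1455959_s_at the signals ran from 10.77 to 11.17 without FAC and from 11.24 to 11.49 with it. The average log2 changes were 0.42 (SE 0.04) and 0.39 (SE 0.04), with limma adjusted p of 0.00302 and 0.00436 with the block, and 0.118 and 0.246 without it. Both probe sets passed in 12 of 12 fits with the block that left out 1 array. Beside macrophages the changes were 0.48 and 0.44 (limma adjusted p = 0.0239 and 0.0369 with the block, 0.894 without it). The first call was lost without FAC replicate 2 or any 1 of the RAW and RAW_FAC arrays (adjusted p up to 0.177). The second held only without FAC replicate 1 or FAC replicate 3 (up to 0.265 otherwise). Without macrophages they were 0.36 and 0.34 and missed the threshold (0.135 and 0.159).

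Gclm, the modifier subunit, followed at a smaller size. On probe set 1418627_at the log2 signals were 11.80, 12.04 and 11.95 in alone, 12.21, 12.32 and 12.16 in FAC, 11.72, 12.01 and 11.90 in RAW, and 12.22, 12.25 and 12.18 in RAW_FAC. Here too the 6 arrays with FAC lay above the 6 without. Such separation held for 3 of 11 member probe sets, both of Gclc and this one, and for 0.257% of all probe sets. The average log2 change was 0.32 (SE 0.05; limma with the block, adjusted p = 0.0150; without it, 0.246). The call was lost, at adjusted p up to 0.0656, when alone replicate 1 or 2 or FAC replicate 1 or 2 was left out. Probe set 1439050_at lay just outside the threshold with an average change of 0.21 (SE 0.04; adjusted p = 0.0589), and its 6 same-number differences ran from 0.11 to 0.30.

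**Figure D2:**
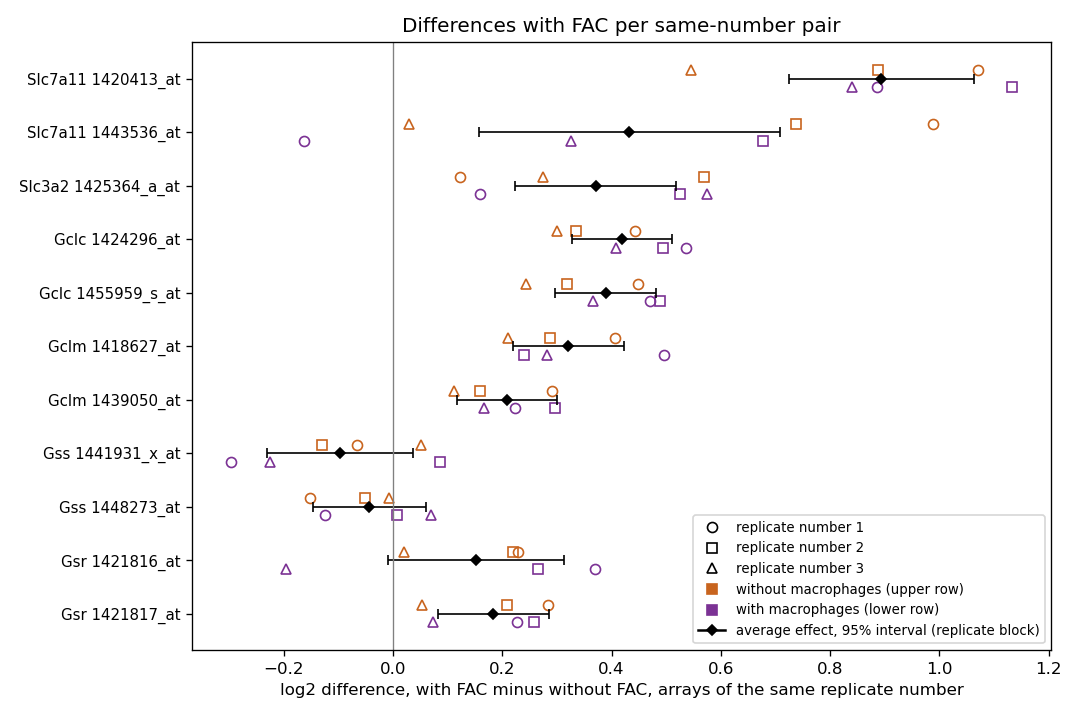
Log2 difference with FAC in each same-number pair of arrays (horizontal axis) for each member probe set, without macrophages (FAC minus alone, orange) and beside them (RAW_FAC minus RAW, purple). Diamonds and bars are the average effect and its 95% interval with the replicate block. For 1420413_at of Slc7a11 all 6 differences lie between 0.55 and 1.13, while those of Gss lie on both sides of 0.

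Gss, which follows the ligase, and the reductase Gsr did not pass. Gss averaged 9.77 ± 0.12 (SD, n = 3) in alone, 9.72 ± 0.12 in FAC, 9.69 ± 0.07 in RAW and 9.54 ± 0.15 in RAW_FAC on probe set 1441931_x_at. Its average log2 change with FAC was -0.10, with a 95% interval from -0.23 to 0.04, and on 1448273_at it was -0.04, from -0.15 to 0.06. Both intervals end below the average changes of Gclc. Gsr, on 1421816_at, read 11.27, 11.38 and 11.55 in alone, 11.50, 11.60 and 11.58 in FAC, 11.10, 11.26 and 11.35 in RAW, and 11.47, 11.52 and 11.16 in RAW_FAC. Array RAW_FAC replicate 3 was low on this probe set and not on 1421817_at, where RAW_FAC read 11.40, 11.40 and 11.44 and lay above all of RAW. The average changes of Gsr were 0.15 (SE 0.07) and 0.18 (SE 0.05), with limma adjusted p of 0.477 and 0.135 with the block. Their 95% intervals with the block ran from -0.01 to 0.31 and from 0.08 to 0.28, so the second lay above 0.

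Counted without any model, 7 of 11 member probe sets were higher with FAC in 6 of 6 same-number pairs, against 3.61% of all probe sets. They were Slc7a11 1420413_at, Slc3a2, both Gclc, both Gclm and Gsr 1421817_at. The 3 FAC arrays lay above the 3 alone arrays for 3 of 11 members, against 3.88% of all. The 3 RAW_FAC arrays lay above the 3 RAW arrays for 5 of 11, against 4.32%.

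Macrophages in the insert gave no called change in any member. RAW lay below alone for 8 of 11 member probe sets, with a median log2 difference of -0.13 against -0.00 over all probe sets. The exceptions were both Slc7a11 probe sets, at 0.15 and 0.20, and Slc3a2, at 0.03. Lower in RAW in 3 of 3 same-number pairs were 7 of 11 members, against 15.8% of all probe sets. Both Gclc probe sets were among them, at -0.17 (95% interval -0.30 to -0.04) and -0.15 (-0.28 to -0.02). Limma with the block gave adjusted p between 0.767 and 0.994 for the 11 members, and 0 of 34958 probe sets passed in either direction. At an unadjusted p under 0.05 with the block, 4 of 11 members were lower in RAW, both of Gclc, 1439050_at of Gclm and 1421817_at of Gsr, against 2.43% of all probe sets. For Gss 1448273_at the 3 RAW arrays lay below the 3 alone arrays, 1 of 11 members against 3.6% of all.

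With iron present in both groups, macrophages again changed no member past the threshold, and 0 of 34958 probe sets passed with the block. RAW_FAC lay below FAC for 9 of 11 member probe sets, and above it for Slc3a2, by 0.12, and for 1420413_at of Slc7a11. RAW_FAC was lower in 3 of 3 same-number pairs for 6 of 11, against 12.2% of all. For Gsr 1421817_at the 3 RAW_FAC arrays lay below the 3 FAC arrays, by -0.14 on average (limma with the block, adjusted p = 0.910). The Slc7a11 difference was 0.27 (SE 0.11, 95% interval 0.03 to 0.50), with a limma unadjusted p of 0.0320 and an adjusted p of 0.910 with the block; without it the unadjusted p was 0.493. Its same-number differences were -0.05, 0.33 and 0.52. With the block it was 0.11 without FAC replicate 3, and without the block it was -0.01 without RAW_FAC replicate 2 and 0.64 without RAW_FAC replicate 1. With all arrays and the block it was the 1 member of 11 with an unadjusted p under 0.05 on the higher side, against 2.85% of all. The Gclc differences were -0.05 and -0.04, with intervals from -0.18 to 0.08 and from -0.18 to 0.09.

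In order of group means, Slc7a11 1420413_at stood at 7.004 ± 0.59 (SD, n = 3) in alone, 7.15 ± 0.59 in RAW, 7.84 ± 0.46 in FAC and 8.10 ± 0.67 in RAW_FAC. Alone and RAW, and FAC and RAW_FAC, did not differ past the threshold. RAW_FAC lay 1.10 (SE 0.11) above alone on 1420413_at, 2.14-fold (limma with the block, adjusted p = 0.0133; without it, 0.981). It was the 1 member of 11 called, against 0.0658% of all probe sets called higher. The call was lost without alone replicate 2 or 3 or RAW_FAC replicate 2 or 3, at adjusted p up to 0.120. Slc3a2 differed by 0.44 (adjusted p = 0.137), Gclc by 0.31 and 0.29 (0.0868 and 0.120), and Gclm 1418627_at by 0.28 (0.168). Gss 1441931_x_at differed by -0.23 (SE 0.09, adjusted p = 0.425). FAC, RAW and RAW_FAC were each set against the same alone arrays, so these comparisons share them.

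Whether the FAC difference depended on macrophages was tested as the interaction, for which 0 of 34958 probe sets passed with the block. No member passed, with log2 differences between -0.31 and 0.12 and limma adjusted p of 1.00 for each, with or without the block. The intervals with the block were wide: -0.22 to 0.46 for Slc7a11 1420413_at, -0.20 to 0.39 for Slc3a2 and -0.06 to 0.30 for Gclc 1424296_at. A passed call beside macrophages and a missed one without them is therefore not a shown difference between them.

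The replicate number held as large a share of the sum of squares of Slc7a11 as iron, or a larger one. It has more levels than iron, and the shares are not adjusted for that. Of the sum of squares of 1420413_at over the 12 arrays, 45.5% lay with iron, 49.1% with the number, 2.43% with macrophages and 2.86% in the residual. On 1443536_at iron held 25.4% and the number 49.8%. On 1420413_at the means over the 4 arrays of each number were 6.89 for number 1, 7.98 for number 2 and 7.70 for number 3. In Gclc 1424296_at iron held 81.5% and the number 8.94%. In Gclm the probe sets split: 77.4% lay with iron on 1418627_at and 21.7% on 1439050_at, where the number held 67.9%. In Gss 1441931_x_at the residual was the largest share, 38.1%.

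**Figure D3:**
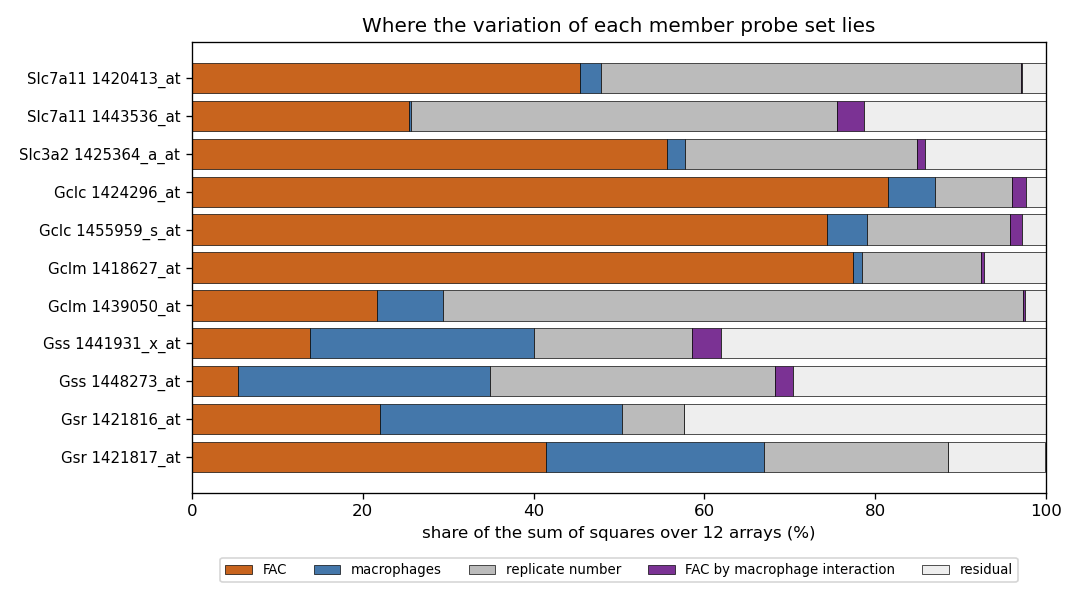
Percent of the sum of squares over the 12 arrays (horizontal axis) that lies with iron, macrophages, replicate number, the interaction of iron and macrophages, and the residual, stacked for each member probe set. Iron holds 81.5% in Gclc 1424296_at and 45.5% in Slc7a11 1420413_at.

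A control probe set moved with the number in part. The one for the 3′ end of 18S ribosomal RNA, read 12.51, 13.25 and 12.94 in alone, 13.15, 13.15 and 12.89 in FAC, 12.52, 13.27 and 12.93 in RAW, and 13.09, 13.19 and 12.60 in RAW_FAC. It was low in replicate 1 of alone and of RAW, where Slc7a11 1420413_at was lowest, and in RAW_FAC replicate 3, where Slc7a11 was not low. Within number 1 the control thus read higher with FAC, both without and with macrophages. Its part in the Slc7a11 result was not tested. With the block and without all 4 arrays of number 1, the average change of Slc7a11 was 0.85, with a limma adjusted p of 0.0524. Without those of number 2 it was 0.84, with 0.153.

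The block assumes that a number shifts all groups alike. Same-number residuals over all probe sets correlated at a median of 0.390 within an iron condition and 0.286 across, so SE of iron comparisons with the block may be too small. Taking the 3 same-number differences alone, averaged over both macrophage conditions, 1 of 11 members passed, Slc7a11 1420413_at (limma adjusted p = 0.0337). Of all 34958 probe sets, 9 passed there. The other 4 called above missed: Gclc (0.0937 and 0.0986), Gclm 1418627_at (0.218) and Slc3a2 (0.292).

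Most of the wider glutathione pathway did not pass with FAC. Of 64 other genes listed, 60 were measured, and the median of their average log2 changes was 0.01, with 33 above 0. With the block 3 of the 60 genes rose, 0 fell, and without the block 0 passed. Of the 101 probe sets of these genes 4 were called higher with the block, against 0.452% of all probe sets. Slc1a4, a carrier of neutral amino acids that include cysteine, rose by 0.34 (SE 0.06; limma with the block, adjusted p = 0.0430). It averaged 8.57 in alone, 8.94 in FAC, 8.60 in RAW and 8.91 in RAW_FAC. Cth, which makes cysteine in the last step of transsulfuration, rose by 0.40 (SE 0.07, adjusted p = 0.0253). Its group means were 9.74, 10.16, 9.87 and 10.25 in the same order. Abcc4, an exporter of organic anions, rose by 0.43 (SE 0.05, adjusted p = 0.00560), with group means of 11.37, 11.80, 11.27 and 11.69. All 3 were higher with FAC in 6 of 6 same-number pairs, as were 3.61% of all probe sets. Their fits were not repeated with arrays left out.

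By role, 0 of 5 other light chains that pair with Slc3a2 passed, and their median was 0.04. In groups without a called gene, the gene named is the one whose unadjusted p was smallest in the fit without a block. Among the light chains it was Slc7a10, with a change of 0.15 (adjusted p = 0.315 with the block). Of 11 breakdown genes 0 passed, and Oplah, which opens 5-oxoproline to glutamate, differed by -0.20 (0.219). Of 12 peroxidases, glutaredoxins and related enzymes 0 passed, with a median of -0.02 and Glrx3 at -0.13 (0.432). The probe sets of Slc7a10, Oplah and Glrx3 were dim, averaging 5.23, 4.49 and 5.31, below the median of all probe set means, 6.18. Oplah was higher with FAC in 2 of 6 same-number pairs. Of 4 genes of other cysteine use 0 passed, with Got1, the cytosolic aspartate aminotransferase, at -0.15 (0.200). All 8 regulators lay above 0 with a median of 0.11 and none passed, Mafg, a small partner of NRF2, being at 0.22 (0.135). Nqo1, a standard NRF2 target outside the list, rose by 0.54 (SE 0.06; limma with the block, adjusted p = 0.00491; without it, 0.246).

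**Figure D4:**
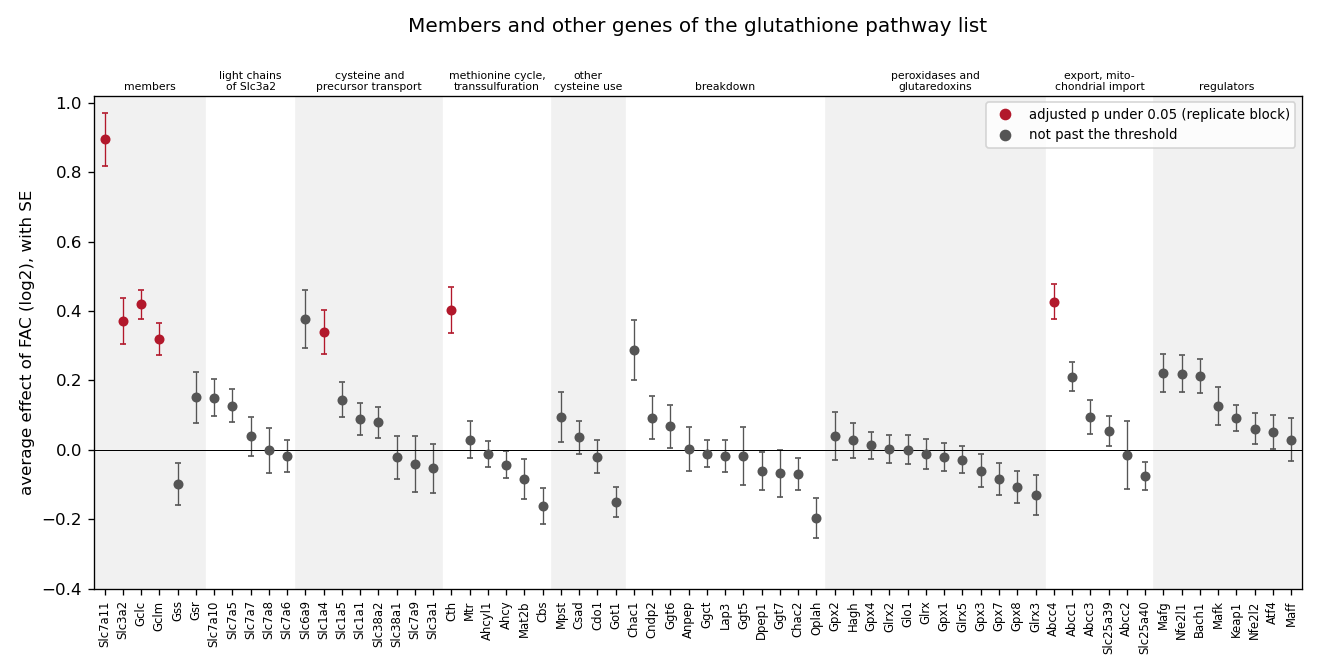
Average effect of FAC (vertical axis, log2, bars are SE with the replicate block) for the 6 measured members and the 60 measured genes of the pathway list, 1 probe set per gene, grouped by role. Red points passed at an adjusted p under 0.05 with the block: 4 members, Slc1a4, Cth and Abcc4.

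The genes whose signals followed the members most closely were ranked by Pearson's correlation over the 12 arrays among 9096 genes above the median level. The arrays share their groups and replicate numbers, so these values describe likeness only. For Slc7a11 they were Blvrb, a biliverdin reductase, at 0.972, then Nudt7 at 0.959, the glutathione transferase Gsta2 at 0.958, Serpinb1b at 0.954 and the heme transporter Slc48a1 at 0.947. For Gclc the nearest was its own partner Gclm at 0.955, followed by Mettl7b at 0.948, Zfand5 at 0.936, Tmem50b and Garem1. For Gclm the nearest was Zfand5 at 0.958, and then Gclc, the proteasome subunit Psma4 at 0.948, Fbxo9 and Garem1. Neighbours in these orders are separated by small steps, and no test was made of them.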

How the data were processed

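Total RNA of 12 BNL CL.2 samples was read on Affymetrix mouse arrays. Signals were deposited by the authors on a log2 scale after RMA in affy, per the submitters' processing notes. The sources used here name neither versions nor a genome build. Of 45101 probe sets, 34958 named 1 gene in the platform annotation, 932 several and 9211 none; only the first were used. Groups and replicate numbers came from the sample titles. A linear model of the 4 group means was fitted over all arrays in limma 3.58.1 (R 4.3.3; Python 3.11.15, pandas 2.3.3, numpy 2.4.6 and matplotlib 3.10.9 for tables and plots), with Benjamini-Hochberg adjustment over all 34958; scripts were tested on simulated data. The first fit had no block. Residuals of the 18 same-number pairs all correlated above 0.1 (0.25 to 0.49), so the fit with the number as a block is given beside it. Different numbers gave -0.32 to -0.00, but residuals cancel within each group, so negative values there go with positive same-number ones by construction. The titles do not say what the numbers stand for or that samples are separate cultures, so p-values measure only the spread between these samples, and 3 arrays per group limit the precision. Pathway genes were named if past the threshold in any comparison, or else, per role group without one, for the smallest unadjusted p for the average effect of FAC in the fit without the block; Tfrc, Nqo1 and the 5 most correlated genes were also fixed. Members, lists and marker lists were chosen with earlier results of these data known. Alternatives were array weights, centring, quantile normalization, a filter on low signals, 1 probe set per gene, trend and robust moderation, fewer groups and fewer arrays; combinations with the block were added after seeing the data.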

Additional observations from a re-analysis of the deposited data

How the results depend on the processing

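The number of member probe sets past the threshold was 0 in the fit without a block and depended on the replicate number. With the replicate block it was 3 for RAW_FAC against RAW, 5 for the average effect of FAC and 1 for RAW_FAC against alone, and 0 in the other 4 comparisons. The replicate block was also taken as the 3 same-number differences alone, averaged over both macrophage conditions for the average effect. The member count was then 1 in each of the 3 comparisons just named, Slc7a11 each time. Of all 34958 probe sets 4, 9 and 1 passed there, against 18, 203 and 36 with the block on all arrays. With the block and 1 probe set per gene, 6 members were tested. The member count was then 1 for FAC against alone, 2 for RAW_FAC against RAW, 4 on average and 1 for RAW_FAC against alone. In the same order, 6, 14, 144 and 37 of all 18194 genes passed. With trend and robust moderation and no block the member count was 1 on average, Gclc, and 1 of 34958 probe sets passed in all. Leaving out 1 array or 1 number with the block gave 0 to 1 for FAC against alone, 0 to 3 for RAW_FAC against RAW, 0 to 5 on average (3 to 5 for 1 array) and 0 to 1 for RAW_FAC against alone. For the average effect, Slc7a11 and Gclc passed without number 3 and missed without number 1 or 2 (adjusted p up to 0.153, 0.165 and 0.260). No called value changed its sign. Among all values, signs changed in 4 of 396 for FAC against alone (Gss), 6 of 396 for RAW_FAC against RAW, 1 of 385 on average, 13 of 396 for RAW against alone, 15 of 396 for RAW_FAC against FAC, 11 of 396 for RAW_FAC against alone and 51 of 385 for the interaction. The cause was not tested.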
